A study of Mus musculus with 35 samples.

Results

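The genes described here are the D cyclins with the kinases they activate and the proteins that hold those kinases in check. There are 9 of them, chosen by name as controllers of the G1 phase of the cell cycle: Ccnd1, Ccnd2, Ccnd3, Cdk4, Cdk6, Cdkn1a, Cdkn1b, Cdkn2c and Rb1. On the arrays 19938 genes have a transcript cluster (the array's unit of measurement for a gene) of their own, and 8 of the 9 are among them. The cluster that carries the symbol Cdkn1a carries a second gene symbol too, so no value is given as that of Cdkn1a.

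RNA was measured on 35 Affymetrix arrays of type 1 conventional dendritic cells (cDC1), the dendritic cells that present antigens of dying cells to CD8 T cells, sorted from mouse spleen. Mycl knockout (KO) cells carried a GFP allele on both copies of Mycl (MyclGFP/GFP). Set 1 held 4 arrays of KO cells and 5 of heterozygous cells (MyclGFP/+) at steady state. Set 2 held 5 arrays of KO and 5 of wild-type (WT, Mycl+/+) cells at steady state. Set 3 held 5 of KO and 5 of WT cells taken 5 h after an injection of 100 µg poly IC, an RNA duplex that mimics viral RNA and sets off interferon signalling. The Mxd1 set held 3 arrays labelled Mxd1-/- and 3 of Mxd1+/+ cells, taken 18 h after poly IC. The labels name no deletion limited to a cell type. Arrays of a group are labelled as biological replicates, with no word on whether each came from its own mouse, so p-values measure the spread between these arrays. The labels give no age and do not say whether resting mice received a mock injection.

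D cyclins are the growth factor-responsive subunits of the CDK4 and CDK6 kinases. These complexes phosphorylate RB, the product of Rb1, which then releases the E2F factors that switch on genes for DNA replication. The p18 INK4c protein, encoded by Cdkn2c, binds CDK4 and CDK6 themselves, whereas p21 (Cdkn1a) and p27 (Cdkn1b) bind cyclin-kinase complexes. MYC proteins, with their partner MAX, bind the E-box letters CACGTG, and Ccnd2 and Cdk4 are textbook MYC targets. MYCL is the MYC family member typical of dendritic cells, and MXD1 competes with MYC proteins for MAX. Splenic dendritic cells keep a limited capacity to divide.

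The values are log2 levels from RMA, and the 4 sets were normalized apart from one another. Levels are therefore tested within a set only, and levels of different sets stand side by side as values without a test. All 8 genes with their own cluster lay above the filter on dim genes on every array. Mycl, the check of the labels, differed by -2.88 ± 0.08 (SE) in set 1 and -4.03 ± 0.07 in set 2. In set 3 the KO library 3 went against its label, with Mycl at 8.87, while the other 4 KO libraries lay at 5.52 to 6.14 and the WT libraries at 9.03 to 9.81. Also in set 3, the mean log2 level of 9 interferon response genes was 10.91 to 11.26 in KO libraries, and 10.84 to 11.09 in 3 WT libraries, but 7.63 and 8.74 in WT libraries 1 and 4. Differences in set 3 are therefore given with and without WT libraries 1 and 4. KO library 3 was kept in the KO group of these differences, except where said for Ccnd3. With any 1 array of set 3 left out, that library included, 0 of the 8 genes passed limma's test. Mxd1 was 10.51 ± 0.11 (SD, n = 3) in the libraries labelled Mxd1 KO and 10.82 ± 0.20 in WT libraries (limma adjusted p = 0.260), so its level does not bear out that label.

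In resting Mycl KO cDC1 of set 2, 3 of the 8 genes tested were higher than in WT cells and none was lower. They were the D cyclins Ccnd2 and Ccnd3 and the CDK inhibitor Cdkn2c. Ccnd2 was about doubled, by 2.06-fold, and the other 2 rose by 0.23 and 0.40 on the log2 scale. Of all 14012 genes tested in set 2, 6.14% passed limma's test at an adjusted p of 0.05, 3.78% higher and 2.36% lower. An unadjusted p under 0.05 was found for 6 of the 8, 5 higher and 1 lower, and for 2975 of all genes tested. With all 8 groups in 1 fit, which pools their spread, none of the 3 passed (adjusted p = 0.117 for Ccnd2, 0.108 for Ccnd3 and 0.0928 for Cdkn2c). The median difference was 0.20 over the 8 genes and 0.01 over all genes tested. Against heterozygous cells, in set 1, 0 of the 8 passed (3 had an unadjusted p under 0.05), where 0.0214% of 14019 genes passed and 1990 had an unadjusted p under 0.05.

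**Figure D1:**
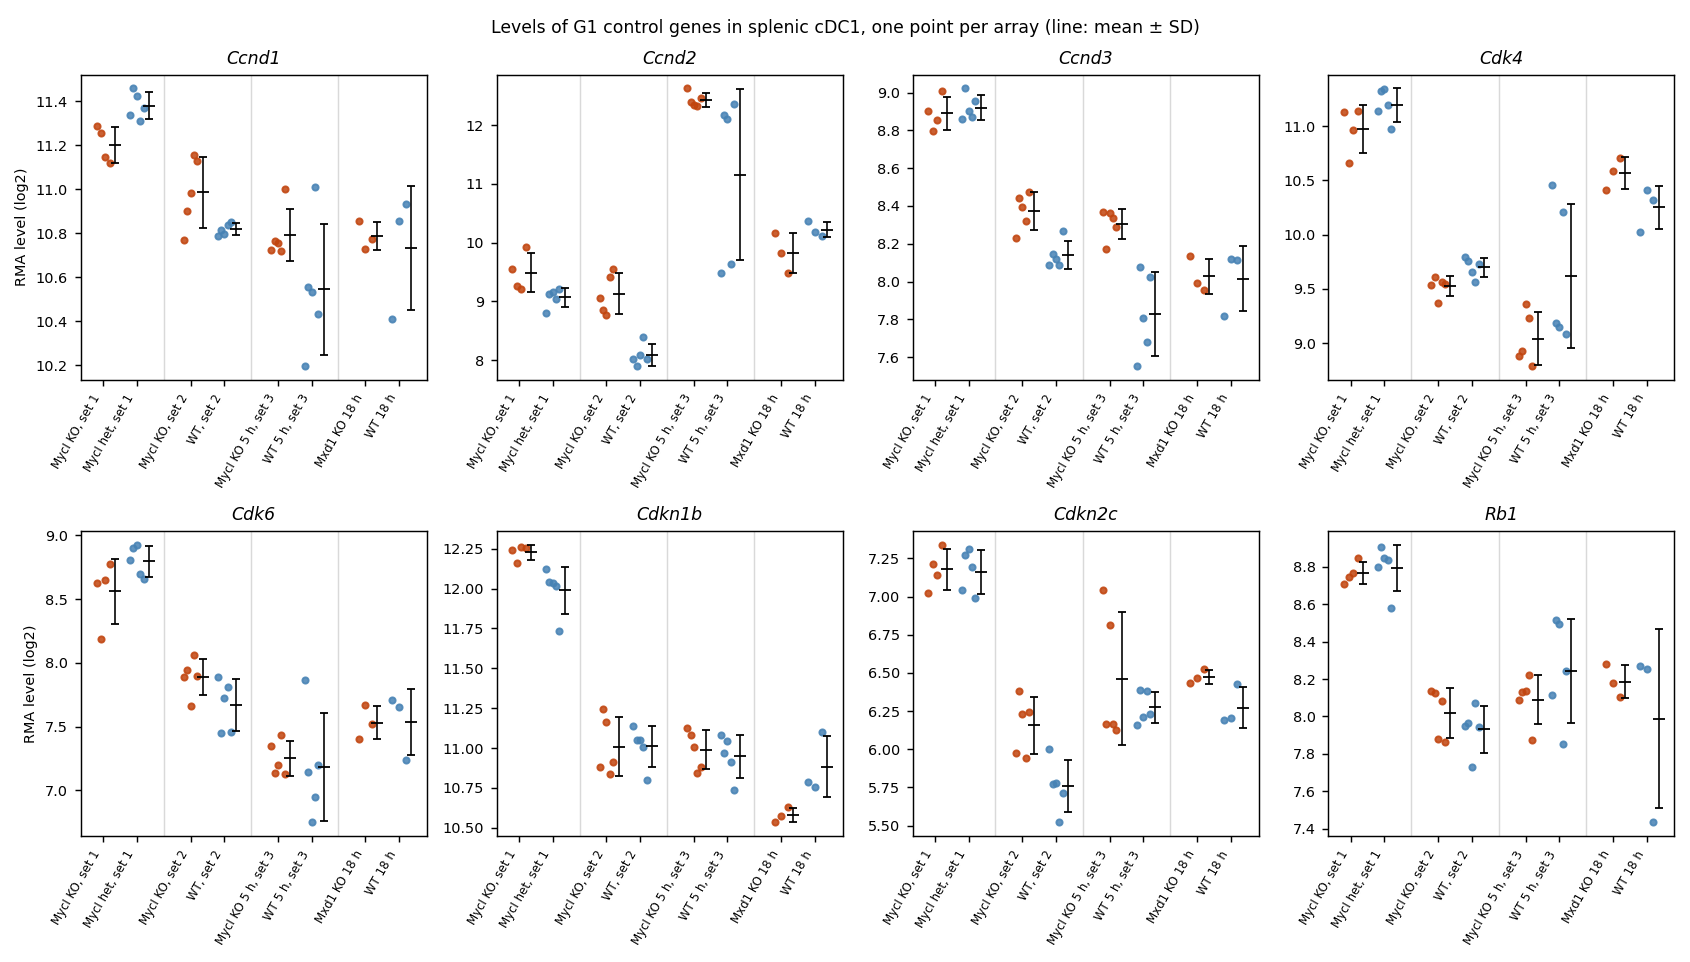
Log2 level of each gene on each of the 35 arrays, in 1 panel per gene, with KO groups (orange) left of their controls (blue) in each set and the group mean ± SD beside the points. Levels of different sets were normalized apart and are not comparable. In the Ccnd2 panel the 5 resting KO arrays of set 2 lie at 8.77 to 9.56, above the 5 WT arrays at 7.90 to 8.39.

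Ccnd2 (chr6:127125162-127152188 in GRCm38.p6) encodes cyclin D2, a D cyclin prominent in blood cells. In set 2 its log2 level was 9.05, 8.84, 8.77, 9.42 and 9.56 in the KO arrays, and 8.03, 7.90, 8.08, 8.39 and 8.03 in the WT arrays. Every KO array lay above every WT array, a separation that 6.74% of all genes tested in set 2 showed in either direction. The difference was 1.04 ± 0.14 (SE, 95% interval 0.75 to 1.33, limma adjusted p = 0.00066), and it ranked 28 of all genes by p. In set 1 Ccnd2 had levels of 9.55, 9.26, 9.21 and 9.93 in KO cells, and 8.80, 9.12, 9.16, 9.04 and 9.21 in heterozygous cells. The lowest KO array met the highest heterozygous one, and the other KO arrays lay above all heterozygous arrays. The difference of 0.42 ± 0.14 (0.12 to 0.73) did not pass the test (adjusted p = 0.239).

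Ccnd3 (chr17:47505051-47599689), the gene of cyclin D3, had levels of 8.23, 8.44, 8.40, 8.32 and 8.48 in KO cells of set 2, and 8.09, 8.14, 8.12, 8.09 and 8.27 in WT cells. Only the lowest KO array lay below the highest WT array. The difference was 0.23 ± 0.06 (adjusted p = 0.0359), a small change whose call was lost without any 1 of the arrays other than KO library 1 and WT library 5 (adjusted p 0.0176 to 0.0996). In set 1 Ccnd3 averaged 8.89 ± 0.09 in KO arrays (SD, n = 4), against 8.92 ± 0.07 in the heterozygous arrays (n = 5), and the interval of the difference was -0.15 to 0.09.

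Ccnd1 (chr7:144929931-144939831) encodes cyclin D1, the D cyclin best known from epithelial cells. In set 1 it had levels of 11.29, 11.26, 11.15 and 11.12 in KO cells, and 11.34, 11.46, 11.42, 11.31 and 11.37 in heterozygous cells. All KO arrays lay below all heterozygous arrays, as groups did not overlap for 4.46% of the genes tested in set 1. The difference of -0.18 ± 0.05 did not pass the test (adjusted p = 0.215). In set 2 the level was 10.77, 10.90, 10.98, 11.16 and 11.13 in KO cells, and 10.79 to 10.85 in WT cells. Here 4 KO arrays lay above the WT arrays and 1 below them, and the difference of 0.17 ± 0.07 did not pass (adjusted p = 0.177). Without KO library 1, the low one, it was 0.22 and passed (0.0496).

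The Mycl KO effects of both resting sets can be set against each other in 1 fit. The effect in set 2 minus that in set 1 was 0.62 ± 0.21 for Ccnd2 (adjusted p = 0.140), 0.26 ± 0.08 for Ccnd3 (0.111) and 0.35 ± 0.09 for Ccnd1 (0.0619). None of the 8 genes passed this test of the difference, which 1.01% of 14637 genes passed; 5 of the 8 and 2375 of all genes had an unadjusted p under 0.05. With array weights Ccnd1 and Ccnd2 passed, and without KO library 1 of set 2 Ccnd1 did (0.40, adjusted p = 0.0144). Over both resting sets, with the set as a block, Ccnd2 was higher in KO cells by 0.75 ± 0.12 (0.50 to 1.00, adjusted p = 0.0010), and by 0.73 with all 8 groups in 1 fit, where it did not pass (0.216). It was the only one of the 8 to pass, where 4.43% of the genes tested passed, 2.01% higher and 2.43% lower. Set 1 and set 2 differ in their control genotype and in their normalization, and these cannot be told apart from one another.

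**Figure D2:**
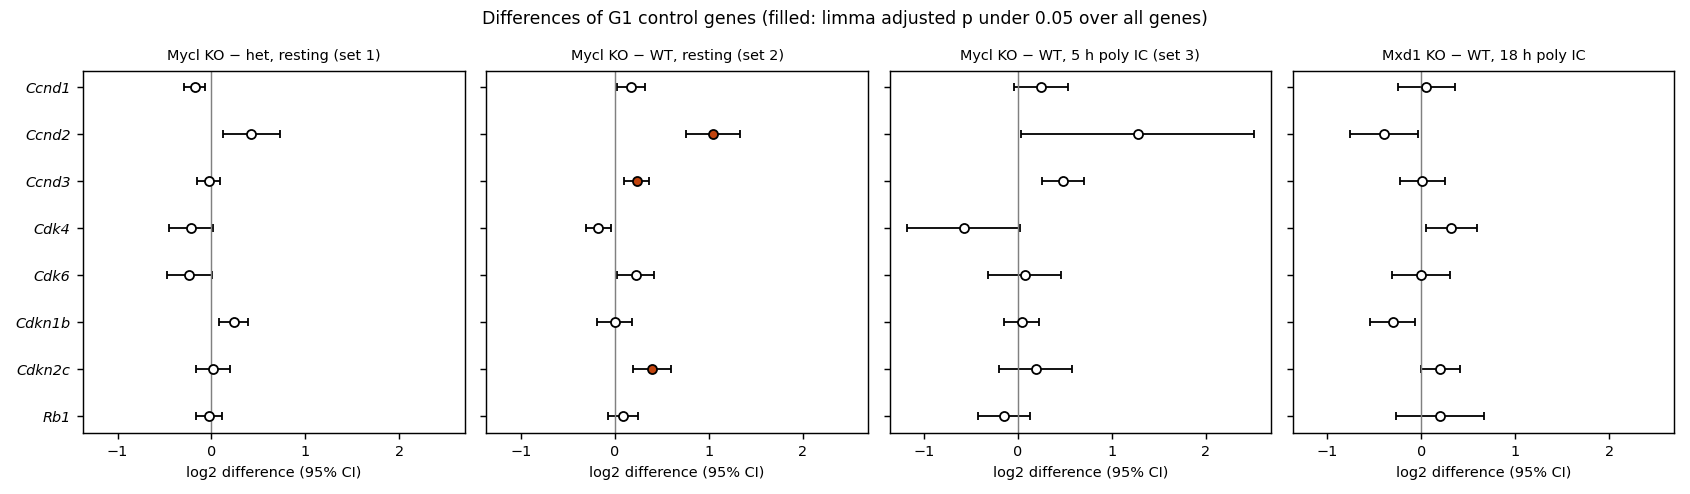
Log2 difference, KO minus control, of each gene in the 4 sets, with 95% intervals from limma. Filled points passed the test over all genes tested: Ccnd2, Ccnd3 and Cdkn2c in set 2, at 1.04, 0.23 and 0.40.

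After 5 h of poly IC, in set 3, 0 of the 8 genes passed the test between KO and WT cells. None of the 14031 genes tested did (0%), while 1992 of them and 2 of the 8, Ccnd2 and Ccnd3, had an unadjusted p under 0.05. Mycl itself, the targeted gene, did not pass there either (difference -2.96 ± 0.54, limma adjusted p = 0.150). A count of 0 in set 3 is therefore no sign that a gene was unchanged. Ccnd2, Ccnd3 and Cdk4 passed once the fit held all 8 groups (adjusted p = 0.0185, 0.000315 and 0.0299). Ccnd2 had levels of 12.62, 12.39, 12.33, 12.32 and 12.47 in KO cells, and 9.48, 12.17, 12.11, 9.64 and 12.36 in WT cells. The 2 low values belong to WT libraries 1 and 4, those with low interferon genes. The difference was 1.27 ± 0.56 (adjusted p = 0.346) with all arrays and 0.21 (adjusted p = 0.501) without these 2 libraries. With the interferon mean as a covariate it was 0.16 (adjusted p = 0.837). The resting arrays of set 2, normalized apart, had Ccnd2 at 8.77 to 9.56 in KO and 7.90 to 8.39 in WT cells.

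Ccnd3 was the D cyclin whose groups did not overlap after poly IC. Its levels were 8.37, 8.17, 8.36, 8.34 and 8.29 in KO cells, and 7.55, 8.08, 7.81, 7.68 and 8.03 in WT cells. Every KO array lay above every WT array, a separation seen for 3.56% of the genes tested in set 3. The difference of 0.48 ± 0.10 (0.25 to 0.70) did not pass over all genes (adjusted p = 0.187). Without WT libraries 1 and 4 it was 0.33 (adjusted p = 0.172), and without the KO library 3 as well it was 0.32 (0.181). The KO effect on Ccnd3 after poly IC minus that in resting cells of set 2 was 0.24 ± 0.12 (adjusted p = 0.394). For the 8 genes, 0 passed that test of the difference and 0 had an unadjusted p under 0.05; 0.0205% of all genes passed it.

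Ccnd1 in set 3 had levels of 10.72, 10.77, 10.76, 10.72 and 11.00 in KO cells, and 10.20, 10.56, 10.53, 11.01 and 10.43 in WT cells. WT library 4 lay just above all KO arrays and the other WT arrays below them (difference 0.25 ± 0.13, adjusted p = 0.385; 0.29 without WT libraries 1 and 4, 0.253).

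**Figure D3:**
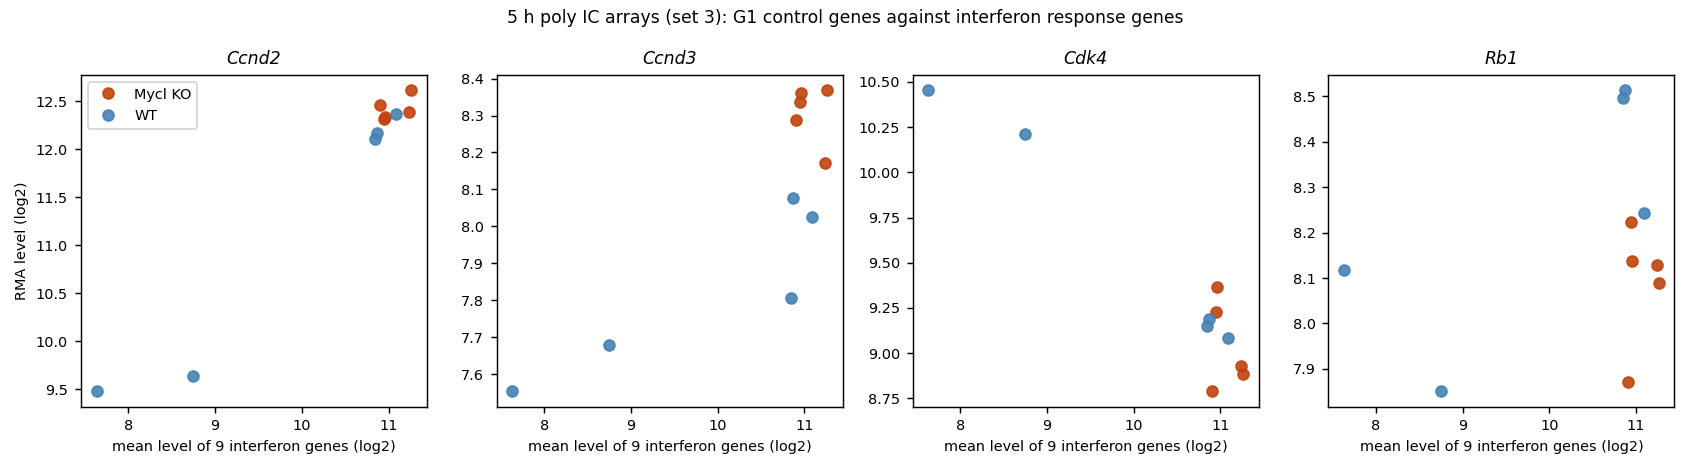
Log2 level of Ccnd2, Ccnd3, Cdk4 and Rb1 against the mean log2 level of 9 interferon response genes on the 10 arrays of set 3 (KO orange, WT blue). WT libraries 1 and 4, at interferon means of 7.63 and 8.74, have Ccnd2 at 9.48 and 9.64, where the other 8 arrays have 12.11 to 12.62.

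In the Mxd1 set 0 of the 8 genes passed the test (3 had an unadjusted p under 0.05, as had 2231 of 14056 genes), where 0.0711% of the genes tested passed. Ccnd2 had levels of 10.16, 9.82 and 9.48 in the libraries labelled Mxd1 KO, and 10.37, 10.17 and 10.12 in WT libraries. The highest array labelled KO lay just above the lowest WT array, and the difference was -0.40 ± 0.16 (-0.76 to -0.04, adjusted p = 0.283), or -0.57 to -0.23 when 1 array was left out, with -0.23 without the KO-labelled library 3. Interferon means were 9.28 to 9.65 in libraries labelled Mxd1 KO and 9.61 to 9.85 in WT libraries; the part of this in the Ccnd2 values was not tested. Ccnd1 and Ccnd3 differed by 0.05 ± 0.13 and 0.01 ± 0.10.

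Cdk4 and Cdk6 encode the kinases. The promoter windows of both are shown because of the 6 genes with a window they are the only ones that hold the MYC and MAX E-box, CACGTG, set in capitals. Sequences are from RefSeq on GRCm38.p6, plus strand, 250 bases up to the transcript start, at chr10:127063285-127063534 for Cdk4 and chr5:3343643-3343892 for Cdk6.
Cdk4: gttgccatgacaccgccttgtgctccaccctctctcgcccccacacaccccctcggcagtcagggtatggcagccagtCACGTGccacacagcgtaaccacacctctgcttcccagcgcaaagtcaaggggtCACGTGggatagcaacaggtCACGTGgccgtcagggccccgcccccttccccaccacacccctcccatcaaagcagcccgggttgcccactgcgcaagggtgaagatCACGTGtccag
Cdk6: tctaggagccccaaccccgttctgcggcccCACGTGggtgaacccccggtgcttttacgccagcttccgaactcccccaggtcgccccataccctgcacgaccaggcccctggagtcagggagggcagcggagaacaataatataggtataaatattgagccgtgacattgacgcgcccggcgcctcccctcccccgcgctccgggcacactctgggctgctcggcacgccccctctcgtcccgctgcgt
The E-box reads the same on both strands and was counted once per position. It occurs in 6.02% of 32851 mouse promoter windows of this length. The Cdk4 window has 4 copies, a number reached or passed in 7 windows, and the Cdk6 window has 1. Windows of Ccnd3, Cdkn1a, Cdkn1b and Cdkn2c hold 0 copies. The E2F letters TTTCCCGC, TTTGGCGC and TTTCGCGC, searched on both strands, occur in 1.53% of windows and in none of these genes. Sequences were found for 6 of the 9 genes, not for Ccnd1, Ccnd2 and Rb1.

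Cdk4 (chr10:127063535-127067288), with the 4 E-boxes, had levels of 9.54, 9.61, 9.37, 9.56 and 9.55 in KO cells of set 2, and 9.79, 9.75, 9.65, 9.57 and 9.73 in WT cells. The highest KO array lay above only the lowest WT array. The difference of -0.18 ± 0.06 (-0.31 to -0.04) did not pass the test (adjusted p = 0.111). In set 1 Cdk4 averaged 10.97 ± 0.22 in KO arrays (SD, n = 4), against 11.20 ± 0.15 in the heterozygous arrays (n = 5), a difference of -0.22 ± 0.11 (adjusted p = 0.370) that was -0.12 without KO library 2. Over both resting sets the difference was -0.20 ± 0.06, with an adjusted p of 0.0616. It passed with quantile normalization, with array weights, and without KO library 4 (0.0435) or heterozygous library 5 (0.0261) of set 1.

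After poly IC, Cdk4 had levels of 8.88, 8.93, 9.36, 9.23 and 8.79 in KO cells of set 3, and 10.46, 9.19, 9.15, 10.21 and 9.09 in WT cells. WT libraries 1 and 4 were the high ones, opposite to Ccnd2. The difference was -0.58 ± 0.27 (adjusted p = 0.361) with them and -0.10 (0.867) without them. Cdk4 in the Mxd1 set was at 10.42, 10.59 and 10.71 in libraries labelled Mxd1 KO, and 10.03, 10.41 and 10.32 in WT libraries. The groups did not overlap there, as for 22.6% of all genes tested, and the difference was 0.32 ± 0.12 (adjusted p = 0.266).

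Cdk6 (chr5:3341004-3531008) did not pass any test. In set 1 its level averaged 8.56 ± 0.26 in KO arrays (SD, n = 4), against 8.80 ± 0.12 in the heterozygous arrays (n = 5). In set 2 it averaged 7.89 ± 0.15 in KO arrays, against 7.67 ± 0.20 in WT arrays (5 of each). The effect in set 2 minus that in set 1 was 0.46 ± 0.15 (adjusted p = 0.129). After poly IC the difference in set 3 was 0.07 ± 0.18 with all libraries and 0.22 (adjusted p = 0.579) without WT libraries 1 and 4. In the Mxd1 set both groups averaged 7.53.

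Cdkn2c (chr4:109660876-109666756) encodes p18 INK4c, which binds CDK4 and CDK6. In set 2 its levels were 5.97, 6.38, 6.23, 5.94 and 6.25 in KO cells, and 6.001, 5.78, 5.78, 5.52 and 5.71 in WT cells. The highest WT array lay among the KO arrays and the other WT arrays below them. Signal was low: WT arrays averaged 5.76, where the median over all clusters was 5.55 to 5.60 on the arrays of set 2. The difference was 0.40 ± 0.10 (0.20 to 0.60, adjusted p = 0.0239), and leaving out library 2 or 5 of the KO cells, or library 2 or 4 of the WT cells, ended the call (adjusted p 0.0169 to 0.0639 over all arrays left out). Cdkn2c lies 13.3 Mb from Mycl on chromosome 4; of 108 genes tested between them in set 2, 10 passed (9.26%, against 6.14% of all genes). The part of the alleles linked to the Mycl mutation in this difference was not tested.

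In set 1 Cdkn2c averaged 7.18 ± 0.13 in KO arrays (SD, n = 4), against 7.16 ± 0.14 in the heterozygous arrays (n = 5). The KO effect in set 2 minus that in set 1 was 0.38 ± 0.13 (adjusted p = 0.159). After poly IC, levels in set 3 were 7.05, 6.17, 6.81, 6.16 and 6.13 in KO cells and 6.16 to 6.39 in WT cells. KO libraries 1 and 3 lay above all WT libraries and the other 3 within or just below their range (difference 0.19 ± 0.18, and 0.19 without WT libraries 1 and 4). Levels in the Mxd1 set were 6.43, 6.47 and 6.53 in libraries labelled Mxd1 KO, and 6.19, 6.20 and 6.43 in WT libraries. The difference there was 0.20 ± 0.09 (adjusted p = 0.321). The lowest array labelled KO, at 6.435, lay just above the highest WT array, at 6.426. Groups did not overlap for 22.6% of all genes tested in the Mxd1 set.

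Cdkn1b (chr6:134920401-134925525) encodes p27 KIP1, an inhibitor of cyclin-CDK2 that also helps D cyclins assemble with CDK4. In set 1 its levels were 12.24, 12.16, 12.26 and 12.25 in KO cells, and 12.12, 12.04, 12.04, 12.02 and 11.74 in heterozygous cells. The groups did not overlap, as for 4.46% of the genes tested there, and the difference was 0.24 ± 0.07 (0.08 to 0.39, adjusted p = 0.220). In set 2 it averaged 11.01 ± 0.18 in KO arrays, against 11.01 ± 0.13 in WT arrays (5 of each), with an interval of the difference from -0.18 to 0.18. In set 3 the difference was 0.04 ± 0.08, and 0.07 without WT libraries 1 and 4. In the Mxd1 set levels were 10.54, 10.57 and 10.63 in libraries labelled Mxd1 KO, and 10.79, 10.76 and 11.10 in WT libraries. The groups did not overlap, as for 22.6% of the genes tested there, and the difference was -0.30 ± 0.11 (adjusted p = 0.244).

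Cdkn1b has another cluster with lower signal, and the 2 clusters disagree. The other cluster gave 0.39 in set 1 (adjusted p = 0.211), 0.19 in set 2 (0.0695), -0.23 in set 3 (0.322) and 0.29 in the Mxd1 set (0.272). It thus has the opposite sign in set 3 and in the Mxd1 set, with no call in either cluster within a set. Over both resting sets it was higher in KO cells by 0.28 (adjusted p = 0.0120), against 0.11 ± 0.06 (0.370) for the brighter cluster. No direction for Cdkn1b is therefore drawn.

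**Figure D4:**
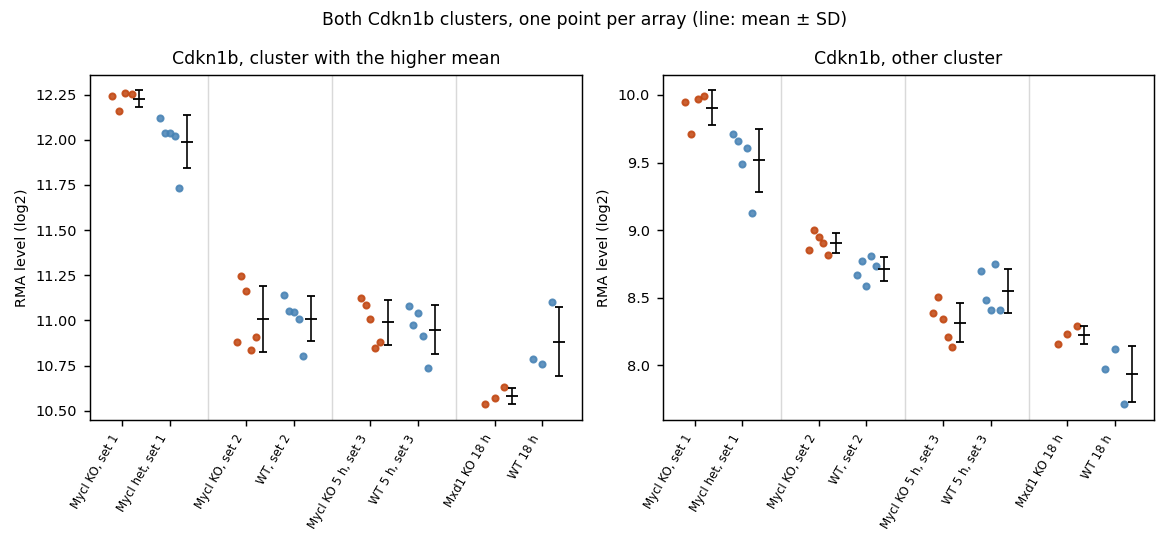
Log2 level of both Cdkn1b clusters on each array, KO groups (orange) left of controls (blue) within each set, with the group mean ± SD beside the points. In the Mxd1 set the brighter cluster averages 10.58 in libraries labelled KO and 10.88 in WT, while the other cluster averages 8.23 in libraries labelled KO and 7.93 in WT.

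Rb1 (chr14:73192858-73325951), the gene of the retinoblastoma protein, did not pass any test. In set 1 it averaged 8.77 ± 0.06 in KO arrays (SD, n = 4), against 8.79 ± 0.12 in the heterozygous arrays (n = 5). In set 2 it averaged 8.02 ± 0.14 in KO and 7.93 ± 0.12 in WT cells, with an interval of the difference from -0.07 to 0.25. In set 3 it averaged 8.09 ± 0.13 in KO and 8.24 ± 0.28 in WT cells, a difference of -0.15 ± 0.13 with all libraries and -0.33 (adjusted p = 0.253) without WT libraries 1 and 4. The Mxd1 set had Rb1 at 8.28, 8.18 and 8.10 in libraries labelled Mxd1 KO, and 8.27, 8.26 and 7.43 in WT libraries. A single low WT array set that group apart in spread, and the difference was 0.20 ± 0.21.

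The genes were also compared with one another over the 35 arrays, after each set was centred on its mean. These correlations are descriptions, and arrays of a set share their normalization. Ccnd2 and Ccnd3 had a Pearson r of 0.77 (0.42, 0.74, 0.85 and 0.04 within sets 1, 2, 3 and the Mxd1 set). Ccnd2 and Cdk4 ran opposite, with r = -0.84 (-0.09, -0.67, -0.97 and -0.91 within the sets). Set 3, with its spread in interferon genes, has the largest size of r in both pairs. Other pairs were weaker, such as Ccnd3 and Cdk4 at -0.58, Ccnd1 and Ccnd3 at 0.52, Ccnd3 and Cdkn2c at 0.49 and Cdk4 and Cdk6 at 0.34. Within sets 1, 2, 3 and the Mxd1 set, Ccnd3 and Cdk4 changed sign (0.57, -0.56, -0.79 and 0.32). So did Cdk4 and Cdk6 (0.94, -0.30, 0.40 and -0.10). Ccnd1 with Ccnd3, and Ccnd3 with Cdkn2c, stayed above 0 in every set.

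Of 13016 genes, those most like Ccnd2 over the 35 arrays were Mfhas1 (r = 0.95), Cd200, an inhibitory surface glycoprotein (0.93), and Gnb4, a G protein beta subunit (0.93). Mfhas1 ran with Ccnd2 at r = 0.62, 0.94, 0.99 and 0.90 within sets 1, 2, 3 and the Mxd1 set. The most opposed were Adpgk (-0.89), Btbd1 (-0.89) and Sgms1 (-0.88). Btbd1 was not opposed alike in every set, with r = -0.0042, -0.74, -0.97 and -0.38 in the same order. Ccnd3 was most like A530064D06Rik (0.85), Aldh1b1 (0.84) and Wee1, the kinase that restrains entry into mitosis (0.84). It was most opposed to Kctd17, Snora73a and Srsf11 (-0.78, -0.78 and -0.77). Srsf11 changed sign, with r = 0.46, -0.41, -0.91 and 0.05 within sets 1, 2, 3 and the Mxd1 set. Cdkn2c was most like Brip1os (0.76), Zfp444 (0.72) and Rfwd3 (0.68) and most opposed to Cd81, Mir615 and Slc25a34 (-0.74, -0.65 and -0.62). In set 2 itself Mfhas1, Cd200 and Gnb4 were higher in KO cells by 0.49, 0.55 and 0.50, and Wee1 by 0.29. The correlations include the gap between KO and control arrays of each set. These differences therefore follow in part from how the genes were picked and are no separate result.

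The genes that RB and E2F control stand downstream of the D cyclins. Of 27 E2F-driven replication genes in set 2, 2 passed, higher in KO cells, a share near the 6.14% of all genes that passed. They were Cdt1, which licenses replication origins, by 0.29 ± 0.07 (adjusted p = 0.0251) and Mcm4, a subunit of the replicative helicase, by 0.23 ± 0.06 (0.0370). A total of 25 of the 27 had a difference above 0, and the median was 0.18, against 0.01 over all genes tested. In set 2, 15 of the 27 had an unadjusted p under 0.05, all higher in KO cells, as had 2975 of 14012 genes in either direction. In set 1, against heterozygous cells, 25 of 26 lay below 0 with a median of -0.18, and none passed the test (6 had an unadjusted p under 0.05). The KO effect in set 2 minus that in set 1 was above 0 for 26 of 27, and Cdc6 (0.66 ± 0.13) and Cdt1 (0.47 ± 0.10) passed that test, each at an adjusted p of 0.0221. Of all 14637 genes, 1.01% passed it. An unadjusted p under 0.05 in it was found for 22 of the 27 and for 2375 of all genes. Heterozygous and WT controls stand in different sets, so this difference cannot be told apart from one between sets.

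After poly IC, 6 of 27 E2F-driven genes lay above 0 in set 3 with a median of -0.08, and none passed or had an unadjusted p under 0.05. Without WT libraries 1 and 4, 25 of the 27 lay above 0 with a median of 0.10, again with none past the test (2 had an unadjusted p under 0.05). In the Mxd1 set all 26 tested lay above 0, with a median of 0.34; none passed, and 18 had an unadjusted p under 0.05. The D cyclin differences in the Mxd1 set, given above, were -0.40 for Ccnd2 and at most 0.05 for Ccnd1 and Ccnd3.

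Of 26 other genes of G1 and S entry tested in set 2, 4 were higher in KO cells and none lower, where 3.78% and 2.36% of all genes were. They were Ccng2, a cyclin linked to cell cycle arrest (0.51 ± 0.12, adjusted p = 0.0197), E2f2 (0.25 ± 0.07, 0.0451), E2f8, a repressor of the E2F family (0.35 ± 0.10, 0.0476), and Cdk2 (0.25 ± 0.07, 0.0477). The median over the 26 was 0.02, and 10 of the 26 had an unadjusted p under 0.05, 8 higher and 2 lower. In sets 1 and 3 none of 25 passed (8 and 7 had an unadjusted p under 0.05) and in the Mxd1 set none of 26 (8 had). The set 3 median was -0.03 with all libraries and 0.01 without WT libraries 1 and 4. Over both resting sets Ccng2 was higher by 0.38 (adjusted p = 0.00806) and Cdk7, the CDK-activating kinase, lower by 0.25 on the log2 scale (0.0306). That is 1 of 26 in each direction, where 2.01% of all genes were higher and 2.43% lower.

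Of 15 genes of D cyclin turnover, mostly subunits of ubiquitin ligases, 0 passed in any of the 4 sets (3, 5, 2 and 3 had an unadjusted p under 0.05 in sets 1, 2, 3 and the Mxd1 set). Over both resting sets 1 of the 15 passed, where 4.43% of all genes did. It was Cul4b, a cullin scaffold, with a difference of -0.19 (adjusted p = 0.0327). Of the p53 targets, the list that surrounds Cdkn1a, 1 of 20 passed in set 2, a share near the 6.14% of all genes that passed. It was Mdm2, the ligase that degrades p53 (0.25 ± 0.06, adjusted p = 0.0274). In set 2, 7 of the 20 had an unadjusted p under 0.05, 2 higher and 5 lower, as had 2975 of 14012 genes in either direction. None of 20, 19 and 20 passed in set 1, set 3 and the Mxd1 set (2, 6 and 3 had an unadjusted p under 0.05). The set 3 medians of turnover genes and p53 targets were -0.03 and 0.05 with all libraries, and 0.01 and -0.00072 without WT libraries 1 and 4. In the MYC and MAX network Myc itself was higher in KO cells of set 2 by 1.18 ± 0.11 (adjusted p = 7.85e-05) beside the lower Mycl. In set 1 the Myc difference was -0.01, and the test between both KO effects gave 1.19 ± 0.18 (adjusted p = 0.0032). In set 3 Myc was 0.40 ± 0.10 higher without passing (adjusted p = 0.229), and 0.34 higher without WT libraries 1 and 4 (0.262).

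**Figure D5:**
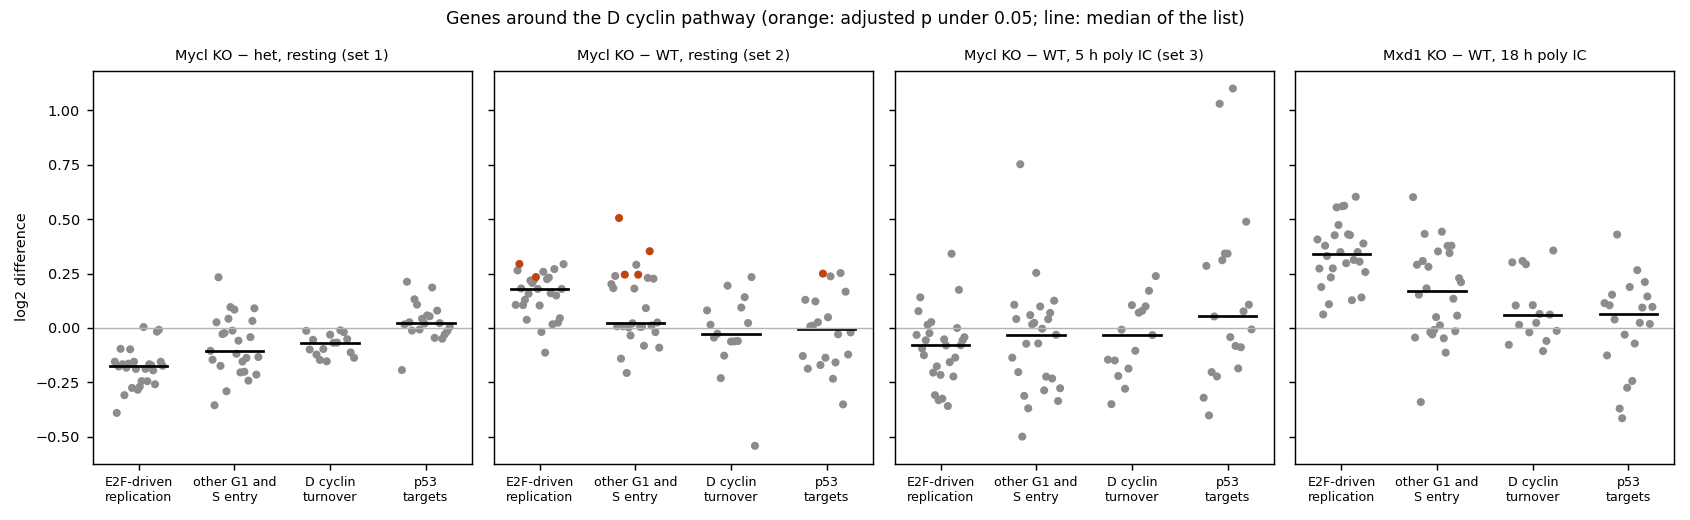
Log2 difference, KO minus control, of every tested gene of 4 pathway lists, with 1 point per gene (orange where it passed the test) and a line at the list's median, in each set. E2F-driven replication genes have medians of -0.18, 0.18, -0.08 (0.10 without WT libraries 1 and 4) and 0.34 in sets 1, 2, 3 and the Mxd1 set.

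Sorted populations can hold other cells, and in bulk RNA fewer cells of a type and less RNA per cell cannot be told apart. All 12 cDC1 markers measured lay above the filter on every array. In set 2, where Ccnd2, Ccnd3 and Cdkn2c rose, 5 of the 12 were higher, such as Flt3 (0.27 ± 0.05), and 1, Cd8a, was lower (-0.38 ± 0.08). Of 60 markers of 7 other cell types, 52 were measured. In set 2, 5 of 38 tested were higher and 6 lower. Of all genes tested in set 2, 3.78% were higher and 2.36% lower, so both marker counts lie above the shares over all genes. For B cells, which also use Ccnd2, Cd22 was higher by 0.70 ± 0.08 (adjusted p = 0.000322) and Ms4a1 lower by 0.58 on the log2 scale, with 1 of 6 tested markers higher and 2 lower. Of the 9 B cell markers measured, Cd79a, Ebf1 and Cr2 lay below the filter on all arrays, while Pax5, Cd79b, Ms4a1, Cd22, Blk and Fcrla did not. The mean of 9 B cell markers was 5.51 to 5.68 in KO and 5.55 to 5.62 in WT arrays. Of 6 monocyte markers tested, Cd14 (-1.42) and Spic (-0.58) were lower, and 3 of the 6 lay above 0. Of 8 cDC2 markers tested, 2 were higher, with Cd209a at 1.37, and Cd4 was lower (-0.53). Of 7 markers of plasmacytoid dendritic cells tested, 2 were higher, with Ccr9 at 0.43, and Pacsin1 was lower (-0.54). The mean of monocyte markers was 6.11 to 6.27 in KO and 6.30 to 6.44 in WT arrays, and that of cDC2 markers 6.03 to 6.53 in KO and 6.001 to 6.23 in WT arrays. Of 8 interferon genes tested in set 2, Usp18 (0.39, adjusted p = 0.00698) and Irf7 (0.43, 0.0101) were higher and 0 lower. Of all genes tested, 3.78% were higher there. Of the 8 interferon genes, 5 lay above 0 and 3 below, with a median of 0.04, against 0.01 over all genes. The interferon mean was 6.91, 6.85, 7.01, 7.06 and 7.19 in the KO arrays, and 6.94, 6.85, 6.90, 6.83 and 7.07 in the WT arrays. KO libraries 4 and 5, with the highest KO means, also had the highest Ccnd2 levels, 9.42 and 9.56, and the groups overlapped in the interferon mean but not in Ccnd2. The part of B cells, monocytes, cDC2, plasmacytoid dendritic cells and interferon signalling in the set 2 results was not tested. In set 3, 0 of 38 other-cell markers passed, but the mean of 7 neutrophil markers ran from 5.66 to 6.77 in KO and 5.17 to 6.22 in WT arrays. In the Mxd1 set 1 of 35 passed, where 0.0711% of all genes did. It was Spic, lower (-1.14, limma adjusted p = 0.0196), while 4 of 6 monocyte markers lay above 0. The part of other cells in these 2 sets was not tested either.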

How the data were processed

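The authors deposited 1 table of log2 values for 35556 transcript clusters on 35 arrays. Per the submitters' processing notes they were made with RMA in Affymetrix Expression Console; their versions: not given in the sources used here. RMA levels are relative to the other transcripts of an array. Arrays of a set shared exactly equal values (13.6 to 1987.08 per pair on average, 0.207 between sets), so the sets were treated as normalized separately. Exactly 1 gene symbol was annotated for 21789 clusters, several for 1621 and none listed for 12146; the cluster with the highest mean stood for its gene. A gene was tested if it reached the 30th percentile of its array on a number of arrays no lower than the size of the smaller group. limma 3.58.1 in R 4.3.3 (lmFit and eBayes, two-sided) tested differences, KO minus control, adjusted by the Benjamini-Hochberg method across every gene tested, with 0.05 as the threshold. The fit was tested on simulated data. Only the groups compared entered a fit. The number of arrays limits the precision.

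The members and lists were chosen with earlier results of these data known. Of each pathway list, genes past the threshold are named, at most the 4 with the lowest p; for each member called within a set, the 3 genes with the highest and the 3 with the lowest Pearson r are named; of each marker list at most 2 genes are named. Promoters were searched in the 250 bases before each RefSeq start. Replicate numbers did not pair the arrays: correlations of deviations between same-numbered arrays ran from -0.40 to 0.35. Alternatives were another choice of cluster, median centring, quantile normalization, array weights, other filters, a trend in eBayes, the replicate block, 1 fit for all 8 groups and leaving out each array. Fits without both low-interferon WT libraries (also for the pathway lists and Myc), without KO library 3 as well, and with the other Cdkn1b cluster were chosen after seeing the data.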

Additional observations from a re-analysis of the deposited data

Results flagged for a closer look

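In groups of 4 or 5 arrays, 66 pairs of a measured level and a group were searched for an array far from the others. Such an array was found in 5 of the 66 pairs, and chance gives such a gap in about 1 in 20. Ccnd1 was 11.00 in KO library 5 of set 3, where the other KO libraries lay at 10.72 to 10.77. Cdk4 was 9.37 in KO library 3 of set 2, against 9.54 to 9.61 in the others. Cdkn1b was 11.74 in heterozygous library 5 of set 1, against 12.02 to 12.12 in the others, and Mycl was 9.65 in the same library, against 9.85 to 9.93. Mycl was 8.87 in KO library 3 of set 3, against 5.52 to 6.14 in the other KO libraries.

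The Mycl KO effect differed between set 2 and set 1, by limma's test of the difference, for Mycl (-1.15, adjusted p = 1.02e-05), Myc (1.19, 0.00324), Cdc6 (0.66, 0.0221), Btg2, an antiproliferative p53 target (-0.40, 0.0221), Cdt1 (0.47, 0.0221) and E2f8 (0.59, 0.0399). Set, normalization and control genotype cannot be told apart in these.

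The cluster annotated with both 4930567H12Rik and Cdkn1a was not part of the tests. In set 3 it was 0.88 higher on the log2 scale in KO than in WT libraries, at 10.30 to 10.56 in KO and 8.61 to 10.20 in WT libraries. WT libraries 1 and 4, with low interferon genes, had the low values of 8.83 and 8.61, and the other WT libraries had 10.02 to 10.20.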

How the results depend on the processing

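Of the recomputed counts of called genes among the 8, 145 stayed within 1.5 times the reported count and 14 did not, counting the levels below as 1. With all 8 groups in 1 fit, which pools their spread, the count was 0 in place of 3 in set 2, 3 in place of 0 in set 3 (Ccnd2, Ccnd3 and Cdk4) and 0 in place of 1 over both resting sets; over all genes the calls were 358, 1910 and 119, against 861, 0 and 649. With array weights 2 passed over both resting sets (Ccnd2 and Cdk4) and 2 for set 2 minus set 1 (Ccnd1 and Ccnd2), with 584 genes in place of 148 and, in set 1, 136 in place of 3; quantile normalization also gave 2 over both resting sets. Leaving out 1 array gave 1 to 4 in set 2, 1 to 2 over both resting sets and 0 to 1 for set 2 minus set 1 (Ccnd1, without KO library 1 of set 2). In set 2 Ccnd2 passed in every such fit (difference 0.94 to 1.13), and Ccnd3 was lost with median centring (0.22, adjusted p = 0.0594). The replicate block, not run for the differences between sets, changed no count among the 8 (Ccnd2 in set 2 1.04, adjusted p = 0.000245). Without WT libraries 1 and 4, 10 genes passed in set 3 and none of the 8. Calls over all genes without 1 array numbered 1 to 7 (set 1), 408 to 1007 (set 2), 0 to 2 (set 3), and 3 to 572 in the Mxd1 set (572 without WT library 2, against 10), 433 to 854 over both resting sets, 31 to 317 for set 2 minus set 1 and 1 to 30 for set 3 minus set 2. The Mxd1 set had 235 calls with all groups in 1 fit, 18 with array weights and 16 with the replicate block. Quantile normalization of all arrays moved 45 of the 64 group levels by over 1 SD.

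Signs that turned are given here, and the cause was not tested. In set 1 they were Ccnd3 (0.012) and Rb1 (0.024) with quantile normalization and Cdkn2c with median centring (-0.00046), array weights (-0.044) and the replicate block (-0.025). For Cdkn1b they were, with the mean of clusters, 0.10 in set 2, -0.10 in set 3 and -0.19 for set 3 minus set 2; with the other cluster 0.19, -0.23, 0.29 (Mxd1 set) and -0.43; and with quantile normalization 0.018 in set 2 and -0.0081 for set 3 minus set 2. In the Mxd1 set Ccnd3 was -0.047 (quantile) and -0.014 (weights) and Cdk6 0.016 (median). Over both resting sets Ccnd1 was -0.0076, -0.021 and -0.0039 and Cdk6 -0.0073, -0.0052 and -0.0068 (median, weights, 1 fit), and Rb1 -0.00048 (weights). For set 3 minus set 2, Ccnd2 was -0.77 (weights) and -0.83 without WT libraries 1 and 4, and Cdk4 0.074 without them. Without these libraries the set 3 medians that turned were 0.10 for E2F-driven genes, 0.0086 for other G1 and S entry genes, 0.0052 for D cyclin turnover, 0.00075 for the MYC and MAX network and -0.00072 for p53 targets. Leave-one-out ranges that crossed 0 were, in set 1, Ccnd3 -0.070 to 0.00017, Cdkn2c -0.035 to 0.071 and Rb1 -0.079 to 0.0023; in set 2 Cdkn1b -0.061 to 0.041; in set 3 Cdk6 -0.039 to 0.24 and Cdkn1b -0.014 to 0.075; in the Mxd1 set Ccnd1 -0.11 to 0.15, Ccnd3 -0.087 to 0.063, Cdk6 -0.15 to 0.088 and Rb1 -0.078 to 0.34; over both resting sets Ccnd1 -0.025 to 0.033 and Cdk6 -0.034 to 0.079; for set 2 minus set 1 Cdk4 -0.058 to 0.10; for set 3 minus set 2 Ccnd1 -0.0093 to 0.19, Ccnd2 -0.19 to 0.53, Cdk6 -0.26 to 0.019 and Cdkn1b -0.012 to 0.10.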
